A study of Mus musculus with 2 samples.

Results

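The respiratory chain and ATP synthase of the left ventricle were followed through the nuclear genes of complex III, cytochrome c, complex IV and ATP synthase in a mouse study of LAMP2 loss. Members were the rows of the expression table whose symbol begins with Uqcr, with Cox and a digit, or with Atp5, together with Cyc1 and Cycs. The rule found 52 of the 31920 rows: 9 of complex III, 1 for cytochrome c, 25 of complex IV and its assembly factors, and 17 of ATP synthase. Of these, 49 were measured, meaning at least 5 reads per 1000000 reads assigned to genes (RPM) in either library. Cox6b2, Cox7b2 and Cox8c were not.

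Polyadenylated RNA was sequenced from the left ventricle of male 129-SvEv mice that were 10 weeks of age. One group was labelled wildtype and the other Lamp2 knockout, with no treatment listed, and each held 1 library. How the Lamp2 allele was made, and whether a library came from 1 mouse or a pool, is not given in the sources used here. With 1 library a group there is no replicate check and no p-value. The intervals given are 95% intervals of counting error only, and they leave out any difference between animals.

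Complex III passes electrons from ubiquinol to cytochrome c, and complex IV passes them from cytochrome c to oxygen. Both pump protons across the inner mitochondrial membrane, and ATP synthase uses the returning protons to make ATP. The heart depends on this pathway for nearly all of its ATP. Nuclear genes encode most of the subunits, while the mitochondrial genome encodes cytochrome b of complex III, the catalytic core of complex IV and parts of the proton channel of ATP synthase. Several complex IV subunits exist as a heart and muscle form and a ubiquitous form, encoded by separate genes.

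The libraries held 8410593 reads (wildtype) and 8773820 reads (labelled Lamp2 knockout). Lamp2, which encodes a lysosomal membrane protein, had 990 and 986 reads, a ratio of 0.955 (0.873 to 1.04), so its level did not tell the libraries apart and the label rests on the submitters' word. Mitochondrial-genome rows took 26.5% of wildtype reads and 16.2% of reads in the other library. RPM is a share of all reads, so every nuclear ratio below moves with that difference. Over the 10209 measured rows, the median log2 ratio of the knockout-labelled over the wildtype library was 0.11, where a pseudocount of 1 RPM was added to both values. Scaling to the median ratio divided ratios by 1.08, scaling to a trimmed mean of log ratios by 1.09, and scaling to the reads outside the mitochondrial genome and the 10 most abundant rows by 1.15. Cardiomyocyte markers (6 of 6 measured) summed to 46909 and 45829 RPM. Their ratios went both ways, with 4 intervals below 1 and 2 above, from Actc1 at 0.711 (0.698 to 0.724) to Ryr2 at 1.42 (1.39 to 1.45). Among all measured rows, 16.8% of intervals lay below 1 and 35% above. Markers of other cells summed to 4.99 and 1.94 RPM for atrial muscle (0 of 3 measured), 14.1 and 14.7 for skeletal muscle (1 of 5), 66.5 and 61.7 for brown fat (1 of 4), 382 and 282 for general fat (1 of 4) and 487 and 449 for fibroblasts (4 of 4). The brown fat sum is mostly Cidea (66.1 and 61.4 RPM) and the general fat sum mostly Fabp4 (376 and 281 RPM). Adipoq had 2 and 1 reads, Plin1 had 12 and 1 and Cfd had 29 and 8. The fibroblast sum is mostly Dcn (379 and 393 RPM); Col1a1 had 28.5 and 6.50 RPM (0.228, 0.167 to 0.305) and Col3a1 36.4 and 6.38 (0.175, 0.130 to 0.234), and the median log2 ratio of the list was −1.002. They summed to 405 and 393 RPM for endothelium (3 of 3), 32.9 and 45.0 for macrophages (2 of 3), 91.8 and 64.5 for smooth muscle (3 of 3) and 255 and 271 for red cells (2 of the 2 in the table). Ucp1, which defines brown fat, a tissue that also uses Cox7a1 and Cox8b, had 0 reads in both libraries, and Mylpf of skeletal muscle had 0 in the wildtype and 8 in the other. The part of other cell types in the results was not tested. In whole tissue, fewer cells of a type and less RNA per cell cannot be told apart.

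Some members have processed pseudogenes, copies of their mRNA elsewhere in the genome, and a short read from such a stretch matches more than 1 place. The handling of such reads is not given in the sources used here. All coding 50-base windows of Cycs, Cox7c, Atp5g2 and Atp5l were found in an annotated pseudogene. A coding stretch is shown for 3 of these genes, since the low counts of such rows bear on the results. Each is given 5′ to 3′ in the gene's own direction, with capitals for a 50-base window found in pseudogenes. The capitals were found in 5 pseudogenes for Cycs (chr6:50565297-50565376, minus strand), 2 for Cox7c (chr13:86045773-86045852, minus strand) and 9 for Atp5l (chr9:44913401-44913466, minus strand) in GRCm38.
Cycs: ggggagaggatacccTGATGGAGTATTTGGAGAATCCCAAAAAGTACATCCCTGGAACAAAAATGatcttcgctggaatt
Cox7c: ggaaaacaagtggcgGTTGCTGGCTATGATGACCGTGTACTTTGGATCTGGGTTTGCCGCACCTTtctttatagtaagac
Atp5l: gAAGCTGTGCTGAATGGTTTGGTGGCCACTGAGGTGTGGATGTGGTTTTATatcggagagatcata

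The promoters of 40 members were found in RefSeq (GRCm38.p6), as 45 windows of 250 bases before to 50 after a start. NRF1, a factor known for respiratory gene control, was searched as TGCGCATGC or GCGCATGCG, which overlap each other, on both strands. A match was in 15.6% of the member windows and 2.25% of all 32851 windows. The 7 members with it were Cycs, Uqcr11, Uqcrc1, Cox6a1, Atp5g2, Atp5k and Atp5l. Stretches that end at the base before the start are shown for 1 member of each of cytochrome c, complex IV and ATP synthase, because their ratios between the libraries were unlike each other (0.334, 1.35 and 1.12). Capitals mark the NRF1 letters and, in Cox6a1, also CCGGAAG of the ETS family near the start, read on the other strand. They lie at chr6:50566570-50566669 (Cycs), chr5:115348959-115349158 (Cox6a1) and chr5:108434400-108434499 (Atp5k), all on the minus strand.
Cycs: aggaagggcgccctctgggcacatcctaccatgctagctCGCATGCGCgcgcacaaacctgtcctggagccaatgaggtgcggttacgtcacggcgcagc
Cox6a1: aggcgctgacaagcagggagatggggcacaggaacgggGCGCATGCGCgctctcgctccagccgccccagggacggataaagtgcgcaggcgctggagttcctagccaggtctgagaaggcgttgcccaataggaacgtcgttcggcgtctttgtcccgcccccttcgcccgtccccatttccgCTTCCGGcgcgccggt
Atp5k: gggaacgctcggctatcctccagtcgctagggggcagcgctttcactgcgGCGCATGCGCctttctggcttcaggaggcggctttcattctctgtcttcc

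The ETS letters CCGGAAG were in 31.1% of member windows and 8.86% of all windows, in 13 members. YY1 as AAGATGGC was in 13.3% and 2.75%, ERR as AAGGTCA in 8.89% and 4.72%, and MEF2 as TAAAAATA in 0% and 2.72%, all on both strands. The ERR members were Atp5e, Atp5g3, Atp5k and Atp5l. A match describes letters in a window and is no evidence of binding.

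Most members had slightly more RPM in the library labelled Lamp2 knockout. The log2 ratio was above 0 for 40 of the 49 measured members, beside 61.2% of all measured rows. The median was 0.26, beside 0.11 for all measured rows, and 39 members lay above that overall median. After log2 ratios were corrected for GC content and the length of transcripts, a step added after the data were seen, the members' median was 0.099 beside 0.108 for the 9697 measured rows with a length, and 22 of the 49 lay above it. The members' higher median was thus not present after that correction. The differences were small in size. No member was 2-fold higher (3.35% of all measured rows were) and 1, Cycs, was 2-fold lower (2.37% of all). Cox8a, Atp5e and Cox4i2 were at least 1.5-fold higher, 3 of 49 beside 12.8% of all measured rows, and only Cycs was at least 1.5-fold lower, beside 7.3%. The counting interval of the ratio lay wholly above 1 for 38 members, beside 35% of all measured rows, and wholly below 1 for Cycs, Cox6c, Cox15 and Atp5a1, beside 16.8%. Intervals narrow as reads grow, and abundant members such as Cox6a2 (31445 and 39972 reads) had narrow ones. After scaling by the reads outside the mitochondrial genome and the 10 most abundant rows, 21 member intervals lay above 1 (20.4% of all measured rows) and 10 below it (30.3% of all), and the median log2 ratio was 0.065 beside −0.075 for all measured rows. The members' median lay 0.14 above that of all rows on the deposited scale and under each of the 3 scalings, which move all rows alike.

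**Figure D1:**
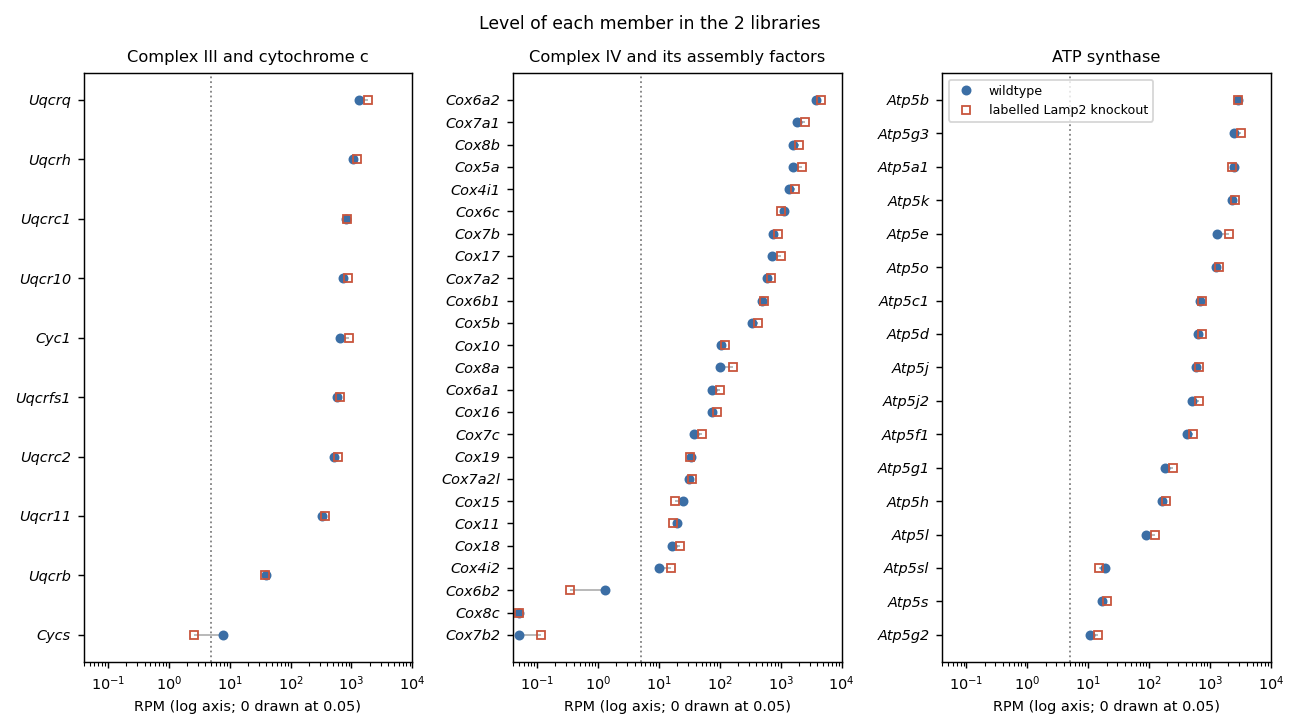
RPM of each of the 52 members in the wildtype library (filled circles) and the library labelled Lamp2 knockout (open squares), on a log axis with 0 drawn at 0.05 and a dotted line at 5 RPM. Cox6a2 is the highest row in both libraries (3739 and 4556 RPM), Cycs lies near 5 RPM, and most pairs of points nearly touch.

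All members together held 3.68% of wildtype reads (309526) and 4.40% of those labelled knockout (386199), a ratio of 1.20 (1.19 to 1.20). As a share of reads outside the mitochondrial genome they held 5.01% and 5.25%, a ratio of 1.05 (1.04 to 1.05). Summed complex IV subunits had a ratio of 1.09 (1.08 to 1.09), complex III 1.07 (1.06 to 1.08), and ATP synthase 1.01 (0.998 to 1.01), an interval that includes 1.

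The ratio of one complex to another does not depend on scaling. Complex IV reads per complex III read were 2.26 and 2.28, a ratio between libraries of 1.01 (0.998 to 1.03). Complex IV reads per ATP synthase read were 0.851 and 0.919, a ratio of 1.08 (1.07 to 1.09). Complex III reads per ATP synthase read were 0.377 and 0.402, a ratio of 1.07 (1.05 to 1.08). Complexes III and IV thus stood in nearly the same proportion in both libraries, and each was higher against summed ATP synthase in the knockout-labelled one, with intervals that exclude 1. Atp5a1 and Atp5b held 20571 and 24491 of the 134926 wildtype reads of ATP synthase and had its lowest ratios, 0.949 and 0.983. The median log2 ratio was 0.21 for ATP synthase subunits and 0.22 for complex III, so the sums do not describe ATP synthase as a whole.

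Complex III was higher in the knockout-labelled library for 8 of its 9 members, with a median log2 ratio of 0.22 (0.11, 0.10 and 0.03 under the median, trimmed mean and non-mitochondrial scalings, and 0.093 after the length and GC correction). On the deposited scale 8 intervals lay above 1 and that of Uqcrb covered 1. Among all measured rows, 61.2% had a log2 ratio above 0 and 35% had intervals above 1. The largest ratios belonged to the electron carrier Cyc1 and the small subunit Uqcrq, and the smallest to the core protein Uqcrc1 and to Uqcrb.

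Cyc1 (chr15:76343523-76345934, plus strand, mm10) encodes cytochrome c1, the heme protein that hands electrons to cytochrome c. It had 659 RPM in the wildtype (5543 reads) and 914 RPM in the knockout-labelled library (8016 reads), a ratio of 1.39 (1.34 to 1.43). Uqcrq, a small accessory subunit, had 1332 and 1842 RPM, a ratio of 1.38 (1.35 to 1.42). Both were higher in the knockout-labelled library beyond counting error. The reads of a partly overlapping clone row on the Cyc1 strand, AK181773, numbered 471 and 449.

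The other core parts differed less. Uqcrc1 and Uqcrc2, the core proteins on the matrix side, had 816 and 846 RPM (ratio 1.04, 1.003 to 1.07) and 517 and 603 RPM (ratio 1.17, 1.12 to 1.22). Uqcrfs1, the Rieske iron-sulfur protein, had 585 and 659 RPM, a ratio of 1.13 (1.08 to 1.17). The direction of Uqcrc1 turned under all 3 scalings (0.956, 0.954 and 0.905), and that of Uqcrfs1 under the non-mitochondrial one (0.984). Relative to Uqcrc1, Cyc1 was at 1.34 times (1.28 to 1.40) and Uqcrq at 1.33 times (1.28 to 1.39) its wildtype proportion, comparisons that no scaling moves. Thus Cyc1 and Uqcrq stood apart from the core protein within the complex.

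Among the small subunits, Uqcrh, the hinge protein, had 1042 and 1250 RPM (ratio 1.20), Uqcr10 had 733 and 868 (1.18) and Uqcr11 had 325 and 368 (1.13, turning to 0.987 under the non-mitochondrial scaling). Uqcrb had only 335 and 328 reads, 39.8 and 37.4 RPM, a ratio of 0.939 (0.804 to 1.10). In Uqcrb 72.9% of coding windows were found in pseudogenes, and their part in its low count was not tested. A row on the opposite strand over Uqcrb, Gm10767, had 102 and 141 reads, and the use of strand is not given.

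**Figure D2:**
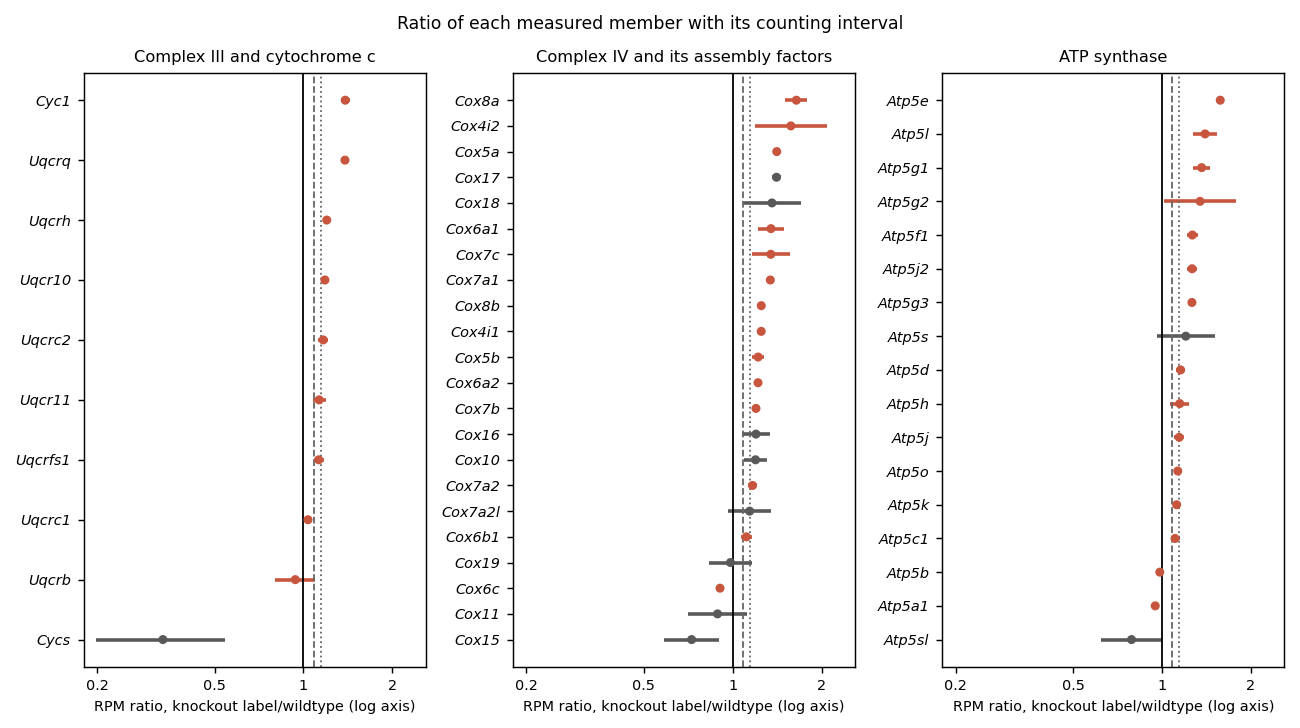
Ratio of RPM in the library labelled Lamp2 knockout over wildtype for the 49 measured members, on a log axis, with 95% counting intervals. Red marks subunits and grey the cytochrome c row, assembly factors and other genes. The solid line is 1, and the dashed and dotted lines (1.08 and 1.15) are where a ratio of 1 would lie after the median and non-mitochondrial scalings. Cyc1, Uqcrq, Cox8a, Cox5a and Atp5e lie to the right of all 3 lines and Cycs far to the left.

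Cytochrome c is the mobile carrier between the 2 complexes, and its row was the lowest of the measured members. Cycs (chr6:50562563-50566474, minus strand) had 66 wildtype reads and 23 in the library labelled knockout, 7.85 and 2.62 RPM, a ratio of 0.334 (0.198 to 0.544). Per kilobase of its longest transcript this was 2.51 and 0.839 RPM, beside 434 and 601 for Cyc1, the other cytochrome of the pathway. All of its coding windows were found in pseudogenes (10 of them), as in the stretch printed above. The part of such matches in the low count and in the ratio was not tested. Relative to Cyc1, Cycs was at 0.241 times (0.143 to 0.393) its wildtype proportion. Hccs, which attaches heme to both cytochromes, had 30.9 and 22.2 RPM, a ratio of 0.719 (0.594 to 0.869). Cycs and Hccs were thus lower while Cyc1 was higher.

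Complex IV gave the highest median of the 3 complexes. Of its 17 subunit rows, 14 were measured, 13 had a ratio above 1 and 1, Cox6c, had one below 1, with a median log2 ratio of 0.32 (0.20, 0.20 and 0.13 under the 3 scalings, and 0.15 after the length and GC correction). For comparison, 61.2% of all measured rows had a log2 ratio above 0. The other 3 rows are testis forms with few or no reads: Cox6b2 had 11 and 3 reads, Cox7b2 had 0 and 1 and Cox8c had 0 and 0. The level of 3 reads was 0.357 RPM in the wildtype and 0.342 in the knockout-labelled library.

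Cox5a, a matrix-side subunit, had 1576 and 2224 RPM, a ratio of 1.41 (1.38 to 1.44). Cox4i1, the subunit that binds ATP and ADP, had 1356 and 1694 RPM, a ratio of 1.25 (1.22 to 1.28), and Cox5b, a zinc-binding subunit, had 341 and 416, a ratio of 1.22 (1.16 to 1.28). Cox4i2, the lung form of Cox4i1, had 84 and 138 reads, 9.99 and 15.7 RPM, a ratio of 1.57 (1.19 to 2.09). Its share against Cox4i1 was 1.26 times (0.953 to 1.68) the wildtype one, an interval that includes 1. A difference between the lung form and the main form was not detectable at this depth.

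Of the remaining small subunits, Cox7b had 746 and 895 RPM (ratio 1.20, 1.16 to 1.24), Cox6b1, which faces the cytochrome c side, had 484 and 539 (1.11, 1.07 to 1.16), and Cox7c had 38.2 and 51.4 (1.35, 1.16 to 1.56). Cox6c had 1113 and 1008 RPM (9359 and 8845 reads), a ratio of 0.906 (0.880 to 0.933), the only one of the 14 measured complex IV subunits with a ratio below 1. Cox5a per Cox6c read was 1.56 (1.501 to 1.62) times the wildtype value. In Cox6c 53.6% of coding windows, and in Cox7c all, were found in pseudogenes. Cox6b1 turned to 0.972 under the non-mitochondrial scaling.

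Heart forms made up most of the reads of every pair with a ubiquitous partner. Cox6a2 (chr7:128205435-128206366, minus strand), the heart and muscle form of subunit VIa, had 3739 and 4556 RPM, a ratio of 1.22 (1.20 to 1.24). Cox6a1 (chr5:115345654-115348955, minus strand), its ubiquitous form, had 75.5 and 102 RPM (635 and 893 reads), a ratio of 1.35 (1.22 to 1.49). The pair ratio per kilobase of merged exons was 51.1 in the wildtype and 46.2 in the knockout-labelled library. Their proportion between libraries was 0.904 (0.814 to 1.003), a scale-free value whose interval reaches 1, so no shift was detectable at this depth. In Cox6a1 22.3% of coding windows were found in a pseudogene, and in Cox6a2 none. The part of such matches in the pair ratio was not tested.

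Cox7a1 (chr7:30184171-30186030, plus strand), the heart and muscle form of subunit VIIa, had 1877 and 2518 RPM, a ratio of 1.34 (1.31 to 1.37). Cox7a2 (chr9:79755241-79759853, minus strand), its ubiquitous form, had 594 and 694 RPM, a ratio of 1.17 (1.12 to 1.21). The pair ratio per kilobase was 5.57 and 6.40, and the heart form was 1.15 times (1.10 to 1.20) higher relative to its partner in the knockout-labelled library. Per kilobase of merged exons, Cox7a1 made up 84.8% of the pair in the wildtype and 86.5% in the knockout-labelled library.

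Cox8b (chr7:140898942-140900446, minus strand), the heart and muscle form of subunit VIII in rodents, had 1600 and 1999 RPM, a ratio of 1.25 (1.22 to 1.28). Cox8a (chr19:7215158-7217616, minus strand), its ubiquitous form, had 101 and 165 RPM (847 and 1452 reads), a ratio of 1.64 (1.51 to 1.79), the highest of all measured members. The pair ratio per kilobase was 27.3 and 20.8, and the heart form was 0.761 times (0.696 to 0.831) its wildtype level relative to its partner. The 3 pairs therefore had no common direction: the heart form was higher against its partner for subunit VIIa, lower for VIII, and not separable for VIa. The heart form of all 3 subunits nevertheless remained more abundant per length than the ubiquitous one in both libraries.

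**Figure D3:**
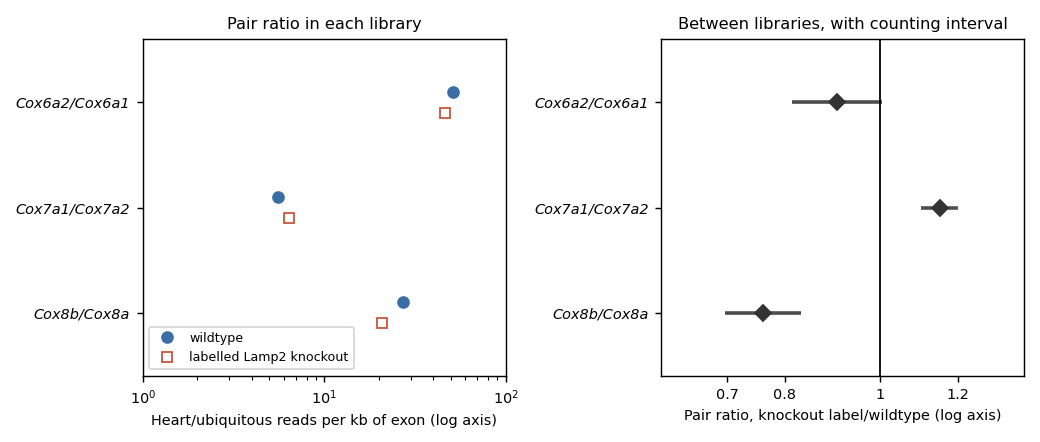
Left, ratio of heart over ubiquitous form in reads per kilobase of merged exons, in the wildtype library (filled circles) and the library labelled Lamp2 knockout (open squares), on a log axis. Right, that ratio in the knockout-labelled library over the wildtype one, with the 95% counting interval, where the solid line is 1. Cox7a1/Cox7a2 lies above 1 (1.15), Cox8b/Cox8a below (0.761), and the interval of Cox6a2/Cox6a1 (0.904) reaches 1.

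Assembly factors differed from one another. Of the 7 among the members, 4 had intervals above 1 and 1 below, beside 35% and 16.8% of all measured rows. Cox17, the copper chaperone of the complex, had 711 and 1001 RPM, a ratio of 1.41 (1.36 to 1.46). Cox10 and Cox15 act in turn to make heme A. Cox10 had 104 and 124 RPM, a ratio of 1.20 (1.09 to 1.31), and Cox15 had 24.97 and 18.1, a ratio of 0.726 (0.587 to 0.896), so these partners went opposite ways. Cox18, which inserts a core subunit, had 16.5 and 22.5 RPM (1.36, 1.09 to 1.70), and Cox16 had 74.4 and 89.2 (1.20, 1.08 to 1.33). The copper factors Cox11 and Cox19 had 19.5 and 17.3 RPM (0.888, 0.708 to 1.11) and 33.1 and 32.5 RPM (0.983, 0.830 to 1.16). Cox7a2l, a supercomplex factor and not a subunit, had 31.2 and 35.6 RPM (1.14, 0.966 to 1.35), turning to 0.997 under the non-mitochondrial scaling. Neighbouring rows overlap the annotated span of Cox11, Cox15 and Cox16, as for 14 members in all, and the use of strand is not given. Of these, Synj2bp beside Cox16 had 68.4 and 74.3 RPM, and Entpd7 beside Cox15 had 3.69 and 5.70.

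Other assembly genes for complex IV also went both ways. Of 17 measured, 12 were above 0 on the log2 scale and 5 below, beside 61.2% of all measured rows above 0. The median was 0.09, near that of all measured rows. There were 9 intervals above 1 and 4 below, beside 35% and 16.8% of all measured rows. Cmc1, a copper-related factor, had 47.3 and 74.7 RPM (1.58, 1.39 to 1.79), and Higd1a, which associates with complexes III and IV, had 126 and 192 RPM (1.53, 1.42 to 1.65). Sco1, another copper chaperone, had 34.6 and 24.7 RPM (0.715, 0.597 to 0.855). Ndufa4, which is now regarded as a complex IV subunit, had 1513 and 1561 RPM (1.03, 1.01 to 1.06). Among 6 complex III assembly genes, all were above 0, beside 61.2% of all measured rows. Intervals above 1 belonged to 2 of them, a share near the 35% of all measured rows. These were Bcs1l with 7.85 and 11.7 RPM (1.496, 1.09 to 2.07) and the row for Uqcc2 with 120 and 166 (1.38, 1.28 to 1.501).

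ATP synthase consists of the catalytic F1 head, which makes ATP, and the membrane part Fo with its stalks, which conducts protons. Of 15 subunit rows, all measured, 13 were above 0 on the log2 scale and 2 below, with a median of 0.21 (0.09, 0.09 and 0.01 under the 3 scalings, and 0.084 after the length and GC correction). The head and the membrane part differed as sums, but the head genes also differed among themselves. The 5 head genes had a median of 0.15 and ranged from −0.076 to 0.656. All 10 genes of the membrane part and stalks were above 0, with a median of 0.34 and a range of 0.166 to 0.481. The share above 0 among all measured rows was 61.2%, with a median of 0.11. Per head read, the membrane part and stalks had 1.01 reads in the wildtype and 1.10 with the knockout label, a ratio of 1.09 (1.08 to 1.11), which does not depend on scaling. Most head reads belong to Atp5a1 and Atp5b, which had the lowest ratios of the 15 subunits. Atp5e, also of the head, had the highest, so the sums do not describe the head as a whole.

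The alpha and beta subunits form the catalytic sites. Atp5a1, the alpha subunit, had 2446 and 2321 RPM (20571 and 20362 reads), a ratio of 0.949 (0.931 to 0.967). Atp5b, the beta subunit, had 2912 and 2864 RPM (24491 and 25125 reads), a ratio of 0.983 (0.966 to 1.001). Under the median-ratio and non-mitochondrial scalings Atp5a1 was at 0.875 and 0.828 and Atp5b at 0.907 and 0.859. The other head subunits had ratios above 1 on the deposited scale. Atp5c1, the rotating gamma subunit, had 679 and 752 RPM (1.11, 1.07 to 1.15), and Atp5d, the delta subunit, had 630 and 729 (1.16, 1.12 to 1.20). Atp5e, the small epsilon subunit of the rotor, had 1320 and 2080 RPM (11102 and 18253 reads), a ratio of 1.58 (1.54 to 1.61). Against Atp5b it was 1.60 times (1.56 to 1.65) and against Atp5a1 1.66 times (1.61 to 1.71) its wildtype proportion. Thus within one head the epsilon gene and the alpha and beta genes, which the assembled head needs in fixed numbers, did not keep the same proportion of reads. Atp5c1 turned to 0.967 under the non-mitochondrial scaling.

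The c subunit of the proton ring is encoded by 3 genes with the same mature protein. Atp5g3 had 2518 and 3182 RPM (1.26, 1.24 to 1.29), Atp5g1 had 180 and 245 (1.36, 1.28 to 1.46) and Atp5g2 had 10.6 and 14.2 (89 and 125 reads; 1.35, 1.02 to 1.79). Per kilobase of the longest transcript they had 3483, 38.2 and 14.1 in the wildtype and 4401, 52.0 and 18.9 in the knockout-labelled library. Atp5g1 was 1.08 times (1.01 to 1.16) and Atp5g2 1.07 times (0.805 to 1.42) its wildtype proportion to Atp5g3. Atp5g3 was therefore the main ring gene of both libraries, but 99.7% of the coding windows of Atp5g1 and all of those of Atp5g2 were found in pseudogenes, and none of Atp5g3.

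The stalk and membrane subunits had ratios from 1.12 to 1.40. Atp5o, the peripheral stalk protein that touches the head, had 1248 and 1412 RPM (1.13, 1.10 to 1.16) and turned to 0.988 under the non-mitochondrial scaling. Atp5f1, the b subunit of that stalk, had 420 and 532 (1.27), and Atp5h, its d subunit, had 163 and 187 (1.15). Atp5j, the F6 coupling factor, had 581 and 665 (1.14, turning to 0.999 under that scaling), and Atp5j2, the f subunit, had 516 and 653 (1.27). An overlapping row on the Atp5j2 strand, AK164124, had 1277 and 1519 reads. Atp5k, the e subunit of the dimer interface, had 2331 and 2615 (1.12, turning to 0.979), and Atp5l, the g subunit beside it, had 87.7 and 123 RPM (738 and 1078 reads), a ratio of 1.40 (1.27 to 1.54). These 2 neighbours in the complex differed in level per length, 6284 and 161 RPM per kilobase of the longest transcript in the wildtype. However, all coding windows of Atp5l and 2.44% of those of Atp5k were found in pseudogenes, as were 50.1% for Atp5f1 and 67.1% for Atp5h. The part of such matches in these levels was not tested. A clone row on the opposite strand over Atp5l, AK017092, had 745 and 1082 reads, nearly the same numbers. Whether the same reads were counted in both rows is not given in the sources used here.

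Of the 2 further rows with an Atp5 symbol, which are not counted as structural subunits, Atp5s had 17.1 and 20.6 RPM (1.20, 0.963 to 1.51) and Atp5sl had 18.8 and 14.8 (0.789, 0.620 to 1.001). Neither interval excluded 1 on the deposited scale, while that of Atp5sl lay below 1 under the 3 scalings, with upper limits of 0.923, 0.922 and 0.874. Among 7 ATP synthase subunits and assembly genes with other symbols, 6 were above 0 on the log2 scale, with a median of 0.19 and 4 intervals above 1. All measured rows had a median of 0.11, with 61.2% above 0 and 35% with intervals above 1. Atpaf2, an assembly factor of the head, had 15.2 and 20.7 RPM (1.36, 1.08 to 1.72), and 2010107E04Rik, a small proteolipid of the enzyme, had 194 and 239 (1.23, 1.15 to 1.32).

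The mitochondrially encoded partners went the other way. The row mt-Cytb, cytochrome b of complex III, had 39147 and 24684 RPM, a ratio of 0.631 (0.627 to 0.634), and mt-Co1, the catalytic subunit of complex IV, had 18913 and 12167 RPM, a ratio of 0.643 (0.638 to 0.648). Nuclear complex III reads per mt-Cytb read were 0.155 and 0.299, a ratio of 1.94 (1.91 to 1.96). Nuclear complex IV reads per mt-Co1 read were 0.722 and 1.39, a ratio of 1.92 (1.90 to 1.94). Both complexes thus showed nearly the same shift between nuclear and mitochondrial transcripts, and it does not depend on scaling. Per all reads outside the mitochondrial genome, mt-Cytb was at 0.553 and mt-Co1 at 0.565 times the wildtype value. Much of the shift therefore lay between these rows and nuclear reads as a whole, and was not particular to the 2 complexes. The rows for mt-Co2, mt-Co3, mt-Atp6 and mt-Atp8 held at most 2 reads and could not be compared.

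**Figure D4:**
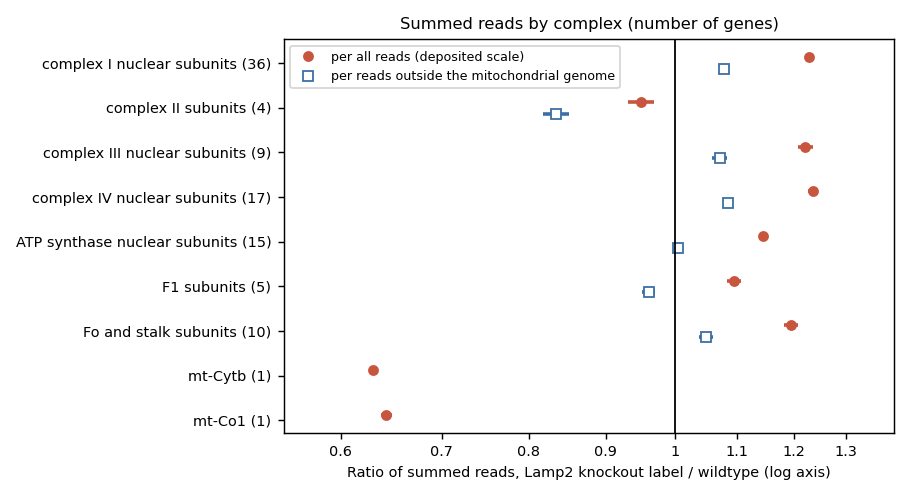
Ratio of summed reads, library labelled Lamp2 knockout over wildtype, on a log axis, for the nuclear subunits of each complex and 2 mitochondrial-genome rows. Filled circles are per all reads and open squares per reads outside the mitochondrial genome, with 95% counting intervals and the number of genes in brackets. Complexes I, III and IV lie close together, ATP synthase lies at 1.01 on the second base, and complex II lies below 1 on both.

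The neighbours of these complexes in the pathway were compared in the same libraries. Complex I had a median of 0.26 over 35 measured nuclear subunits (30 above 0), with 28 intervals above 1 and 1 below. The shares of all measured rows were 61.2% above 0, 35% with intervals above 1 and 16.8% below. Per all reads, the summed ratio of complex I was 1.23, close to 1.22 for complex III and 1.24 for complex IV. The largest complex I ratios were those of Ndufc1 with 270 and 458 RPM (1.70, 1.61 to 1.79) and Ndufs6, an accessory subunit, with 1400 and 2210 (1.58, 1.54 to 1.62). Complex II, which has no mitochondrially encoded subunit, differed: 3 of 4 subunits were below 0 and the median was −0.19. The summed ratio of complex II was 0.950 (0.932 to 0.969) per all reads and 0.834 per reads outside the mitochondrial genome. Sdhc, a membrane anchor, had 407 and 320 RPM (0.785, 0.747 to 0.826), and Sdhd, the other anchor, had 290 and 235 (0.809, 0.762 to 0.858). Per complex II read, complex III was 1.29 times (1.26 to 1.31), complex IV 1.30 times (1.27 to 1.33) and ATP synthase 1.21 times (1.18 to 1.23) the wildtype value. No value after the length and GC correction is given for these sums or for complexes I and II. The part of transcript length and GC content in these contrasts was not tested.

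Genes that control respiratory transcription were not uniformly different. Of 14 measured, 7 were above 0 and 7 below, with a median of 0.00. Intervals of Yy1 (28.3 and 41.1 RPM, 1.45) and Mef2d (175 and 189 RPM, 1.08) lay above 1. Those of Ppargc1a, Ppargc1b, Esrrb, Esrrg and Mef2c lay below it. Over all measured rows, 61.2% were above 0, 35% had intervals above 1 and 16.8% had intervals below it. Ppargc1a and Ppargc1b, coactivators of mitochondrial gene expression, had 76.5 and 30.2 RPM (0.395, 0.341 to 0.457) and 31.5 and 14.7 (0.467, 0.375 to 0.578). The ERR receptors Esrrb and Esrrg had 44.6 and 26.4 RPM (0.593, 0.501 to 0.7004) and 46.8 and 26.6 (0.567, 0.480 to 0.668), while Esrra had 118 and 120 (1.02, 0.935 to 1.11). Nrf1, whose letters were searched above, had 9.87 and 12.7 RPM (1.28, 0.956 to 1.72). The coactivators, Esrrb and Esrrg were lower in the library in which most complex III, IV and ATP synthase members were higher on the deposited scale. After the length and GC correction, the members' median (0.099) was not above that of all rows with a length (0.108). A link between these genes and the members was not tested.

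Among subunits and the cytochrome c row, levels were lower where at least 50% of coding windows were found in pseudogenes. The 9 subunit and cytochrome c rows with at least 50% of windows shared had a median of 74.4 RPM per kilobase of the longest transcript in the wildtype (2.51 to 1508). The 11 rows with fewer shared windows had 745 (132 to 6284), and the 19 rows with none had 876 (13.6 to 5498). Assembly factors and other genes are left out of these classes. Several of them were low with no shared window, such as Cox15 (5.20) and Atp5sl (7.87), though Cox17 had 193. Over the 49 measured members, the share of windows and wildtype level on the merged-exon scale had Pearson's r = −0.42 and Spearman's rho = −0.27. For the log2 ratio between the libraries the values were −0.18 and −0.08, all across genes that share 2 libraries and given as a description. Longer transcripts had lower log2 ratios among members (r = −0.41, rho = −0.30).

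**Figure D5:**
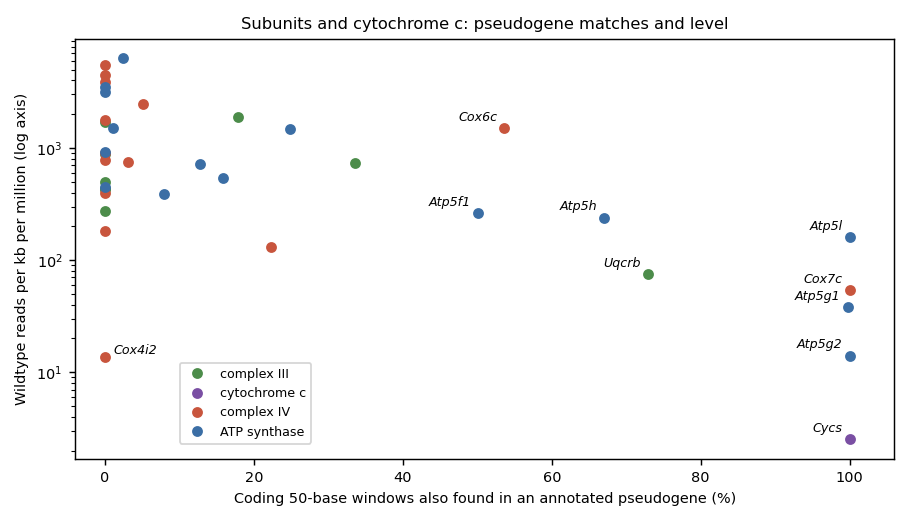
Wildtype level per kilobase of the longest transcript (log axis) against the percentage of coding 50-base windows found in an annotated pseudogene, for the measured subunits and the cytochrome c row, coloured by complex. Rows at or near 100%, among them Cox7c, Atp5g1, Atp5g2, Atp5l and Cycs, lie low, and Cox4i2 is the only named row that lies low with no shared window.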

How the data were processed

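Left-ventricular RNA of 1 wildtype library and 1 library labelled Lamp2 knockout was compared, with groups taken from the genotype labels. The authors deposited whole-number read counts per gene and RPM; RPM equalled the count divided by the library total times 1000000. The submitters' processing notes name STAR, mm10 and GRCm38; the sources used here do not give the counting tool, the use of strand or the handling of multiply matching reads. The authors' deposited fold ratio and p-value were not used. Deposited starts count from 0 and are printed plus 1.

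Rows with at least 5 RPM in either library were measured. Ratios were taken between plain RPM, with Clopper-Pearson 95% intervals conditional on the summed reads; log2 ratios add 1 RPM. Ratios of gene pairs carry exact conditional intervals and ratios of summed complexes normal-approximation intervals of the odds ratio. Lengths, pseudogenes and coding windows came from GENCODE M21 of GRCm38, and promoters from RefSeq GRCm38.p6. Intervals cover counting error only, and reads lacking molecular identifiers need not be separate molecules; rows of few reads are known least closely. Members and lists were chosen with earlier results of these data known. Named were the core subunits, isoform pairs, assembly factors, the 3 highest and 3 lowest log2 ratios of each complex and up to 2 genes of each list; other members appear by their value. Sco1, Nrf1, Yy1, Mef2c, Mef2d and the ERR receptors fall outside that rule and were named after their values were seen. Alternatives were 3 rescalings, other pseudocounts and minimums, leaving out overlapped rows, and, added after the data were seen, a length and GC correction. The calculation was tested on simulated data. Python 3.11.15, numpy 2.4.6, pandas 2.3.3, scipy 1.17.1, statsmodels 0.14.6 and matplotlib 3.10.9 were used.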

Additional observations from a re-analysis of the deposited data

How the results depend on the processing

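The median log2 ratio of the members was 0.14, 0.14 and 0.065 under the median-ratio, trimmed-mean and non-mitochondrial scalings, beside 0.00, −0.0024 and −0.075 for all measured rows, so it lay 0.14 above them each time. After the added length and GC correction it was 0.099 beside 0.108 for all rows with a length, so that excess was no longer present. The median log2 ratio of complex III was 0.11 under the median-ratio scaling, 0.10 under the trimmed mean, 0.027 under the total without mitochondrial-genome rows and the 10 most abundant rows, and 0.093 after the added length and GC correction. For complex IV subunits the same settings gave 0.20, 0.20, 0.13 and 0.15, with 0.29 for no minimum level and 0.37 with overlapped rows left out. For ATP synthase they gave 0.093, 0.091, 0.014 and 0.084. At least 1.5-fold higher were 1, 1 and 0 members under the 3 scalings, and at least 1.5-fold lower were 2 under the third, 2 at a minimum of 1 RPM, 0 at 20 RPM and 2 with no minimum. Intervals above 1 were 21 under the third scaling, and intervals below 1 were 7, 7 and 10. The ratio of Uqcrc1 turned to 0.956, 0.954 and 0.905, and under the third scaling those of Uqcrfs1 (0.984), Cox6b1 (0.972), Atp5c1 (0.967), Atp5o (0.988), Uqcr11 (0.987), Atp5k (0.979), Atp5j (0.999) and Cox7a2l (0.997) turned, 9 members in all with Uqcrc1. The turns follow from the construction of the scalings, which divide every ratio by 1 factor; the cause of the mitochondrial difference was not tested. Pseudocounts of 0.1 and 5 RPM and the restriction to subunits and cytochrome c moved no count by over 1.5 times. Proportions within pairs do not depend on scaling, and the planned addition of pseudogene reads to the isoform pairs was not run because the table lists no such rows. Leaving out a replicate and a replicate block were not possible with 1 library a group. Low reads limit Cox7b2, Cox8c, Cox6b2, Cycs, Cox4i2 and Atp5g2.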
